A study of Mus musculus with 6 samples.

Results

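The 10 heat shock chaperone genes described here are Hspa1a, Hspa1b, Hspa8, Hsph1, Dnajb1, Bag3, Hsp90aa1, Hsp90ab1, Hspd1 and Hspe1. They were taken by gene name from a table of 54532 mouse genes and were chosen with earlier results of these data known. Each name matched 1 gene, and all 10 passed the expression filter used for testing, a mean of at least 1 FPKM (fragments on a gene relative to its length and to the size of the library) over the 6 libraries. RNA-seq was run on poly-A RNA of wild-type (WT) mouse peritoneal macrophages, the phagocytes of the abdominal cavity, which were drawn into the cavity with 3% thioglycolate and cultured overnight. The 3 groups had 2 libraries each. Control cells were left untreated. Model cells had LPS, the endotoxin of Gram-negative bacteria, at 500 ng/mL for 5.5 h and then ATP, the second signal of the NLRP3 inflammasome, at 2 mM for 0.5 h. MUS cells had the same LPS and ATP and, 5 h after LPS, 50 μM muscone, the macrocyclic ketone that gives musk its odor. No group had muscone alone or a heat shock, and the sources used here do not say whether the 2 libraries of a group came from separate mice or cultures, so p-values measure only the spread between these libraries.

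Heat shock proteins keep other proteins folded. HSP70 proteins bind unfolded stretches and are driven by J-domain proteins such as Dnajb1 and reset by nucleotide exchange factors such as Hsph1 and Bag3. HSP90 finishes the folding of kinases and receptors, among them many signaling proteins of the innate immune response, and HSP60 (Hspd1) with its lid HSP10 (Hspe1) folds proteins inside mitochondria. The HSP70 and HSP90 families have members that are made at all times, such as Hspa8 and Hsp90ab1, and members that heat shock factor 1 (HSF1) switches on under stress, such as Hspa1a, Hspa1b and Hsp90aa1. HSF1 binds heat shock elements, which are inverted repeats of the unit GAA in promoters.

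The promoters differ in how plainly they carry these elements. RefSeq promoter sequences (build GRCm38.p6) were at hand for 7 of the 10 genes, and those of Hspa8, Hsp90aa1 and Hsp90ab1 were not analysed here. The 250 bases before each start were searched on both strands for 2 facing units (GAANNTTC or TTCNNGAA, found in 12.8% of all 32851 promoter windows) and for 3 units (GAANNTTCNNGAA or TTCNNGAANNTTC, found in 0.466%). A 3-unit match also counts as a 2-unit match. At least 1 such 2-unit element was found for 5 of the 7 genes, in 6 of their 10 windows. These windows are not independent. Windows of Hspd1 and Hspe1 hold the same stretch, and the 2 windows of Hsph1 overlap. Hspd1 and Hspe1 are transcribed in opposite directions from a shared stretch on chromosome 1, and this stretch holds a run of 3-unit matches that both genes have in their windows, on opposite strands. It is printed with the heat shock element in capitals and 6 bases on either side, at -144 to -127 from 1 of the 2 starts of Hspd1 and at -89 to -72 from the start of Hspe1, where -1 is the base before the start. The window before the other Hspd1 start, which borders the gene model, held none of these elements, and the printed stretch lies inside the Hspd1 gene model. The third line shows the element of Hsph1, at -33 to -26 from 1 of its 2 starts.

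Hspd1, chr1:55088053-55088082, minus strand: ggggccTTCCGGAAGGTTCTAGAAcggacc

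Hspe1, chr1:55088053-55088082, plus strand: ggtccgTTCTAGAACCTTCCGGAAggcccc

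Hsph1, chr5:149636351-149636380, minus strand: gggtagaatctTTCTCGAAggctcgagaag

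Hspa1a and Hspa1b are neighbors on chromosome 17 that code for near-identical HSP70 proteins, and Bag3 is the gene that had the lowest levels after treatment relative to Control. The 250 bases before their starts are shown because the twin genes can be compared base by base and because Bag3 has no heat shock element match.

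Hspa1a, chr17:34972157-34972406, minus strand: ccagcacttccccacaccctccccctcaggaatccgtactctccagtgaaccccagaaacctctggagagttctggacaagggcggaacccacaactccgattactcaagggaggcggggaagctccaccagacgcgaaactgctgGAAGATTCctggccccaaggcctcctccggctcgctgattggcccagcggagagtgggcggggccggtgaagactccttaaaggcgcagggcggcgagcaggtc

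Hspa1b, chr17:34959239-34959488, minus strand: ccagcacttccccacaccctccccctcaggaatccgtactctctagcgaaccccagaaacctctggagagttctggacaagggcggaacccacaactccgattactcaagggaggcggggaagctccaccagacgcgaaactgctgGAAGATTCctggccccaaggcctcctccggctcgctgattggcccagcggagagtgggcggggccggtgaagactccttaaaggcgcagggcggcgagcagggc

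Bag3, chr7:128523333-128523582, plus strand: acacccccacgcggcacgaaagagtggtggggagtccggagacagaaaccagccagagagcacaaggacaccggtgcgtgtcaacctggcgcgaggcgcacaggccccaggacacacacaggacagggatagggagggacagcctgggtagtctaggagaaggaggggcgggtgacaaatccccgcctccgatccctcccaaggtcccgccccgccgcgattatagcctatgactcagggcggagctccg

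The windows of Hspa1a and Hspa1b were identical at 247 of 250 bases (98.8%). Counted from the first printed base, with the base of Hspa1a first, the differences were C44T, T47C and T249G. Both hold the same 2-unit element, in capitals, at -104 to -97. Both also hold a CCAAT box (here ATTGG, at -67 to -63), a motif that 33.8% of all windows hold on either strand. The windows of Bag3 and Dnajb1 held none of the heat shock elements as spelled above, although 1 of the 2 Dnajb1 windows lies inside its gene model. TATAAA was in none of the 10 member windows against 7.59% of all windows, and 10 windows, some of them overlapping, are too few to differ from that share. A match is only a match of letters, and no binding was measured.

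**Figure D1:**
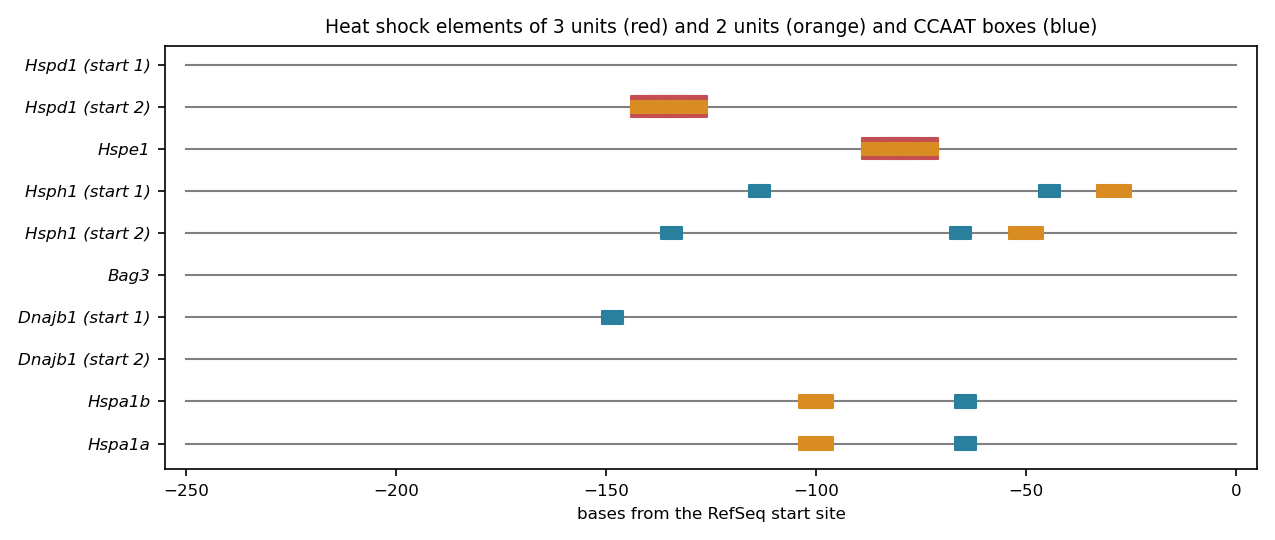
Matches to heat shock elements and CCAAT boxes in the 250 bases before each RefSeq start of 7 of the genes, with distance from the start in bases on the x axis and 1 line per start. Hspd1 (at 1 of its 2 starts) and Hspe1 hold elements of 3 units, Hspa1a, Hspa1b and Hsph1 elements of 2 units, and Bag3 and Dnajb1 none.

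Untreated macrophages already held the constitutive chaperones at high levels and the stress-inducible HSP70 genes at the lowest levels of the 10. In FPKM, which divides by gene length and so allows genes to be compared, the order in Control was Hsp90ab1 (244 ± 44.1, SD, n = 2), Hspa8 (195 ± 23.8), Hsp90aa1 (69.5 ± 5.30), Hspd1 (32.3 ± 3.41), Bag3 (18.3 ± 11.3), Hspe1 (18.2 ± 1.33), Hsph1 (7.93 ± 1.07), Dnajb1 (4.47 ± 0.552), Hspa1b (1.11 ± 0.750) and Hspa1a (0.737 ± 0.271). The libraries overlapped between Bag3 and Hspe1 and between Hspa1b and Hspa1a, and between no other neighbors in this order. In Model and in MUS, Hspa8 stood above Hsp90ab1 in both libraries, while Bag3 moved from the fifth place to a level that overlapped with Hsph1 in Model and with Dnajb1 in MUS. Hspa1a had only 37 to 69 fragments per library and Hspa1b 37 to 153, against 17482 to 39423 for Hspa8, so relative counting error is largest for the inducible HSP70 genes.

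In bulk RNA, fewer cells of a type and less RNA per cell cannot be told apart. All 8 macrophage markers checked (Adgre1, Cd68 and Csf1r among them) were expressed, with a summed level of 9574 to 14280 FPKM, of which Lyz2 alone gave 7275 to 12010. Single markers moved in both directions with treatment. Csf1r was at 208 to 272 FPKM in Control and 83.4 to 105 in the treated libraries, and Cd68 at 731 to 1172 and 540 to 624. Cd14 was at 125 to 406 in Control and 1140 to 1748 in the treated libraries, and Fcgr1 at 7.87 to 18.3 and 134 to 161. Markers of T and NK cells, B cells and mast cells summed to at most 1.59 FPKM in any library. The 6 neutrophil markers summed to 13.7 to 30.7 FPKM in Control, 56.5 to 110 in Model and 50.3 to 64.0 in MUS, nearly all of it from S100a8, with Ly6g, Retnlg and S100a9 at 0 in every library. The 4 eosinophil markers summed to 2.46 to 4.06 FPKM in Control and 1.23 to 1.52 in the other groups, with Prg2, Epx and Ear6 at 0, and the 5 mesothelial and fibroblast markers to 6.61 to 16.1 over all libraries. The part of these levels in the chaperone differences was not tested.

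**Figure D2:**
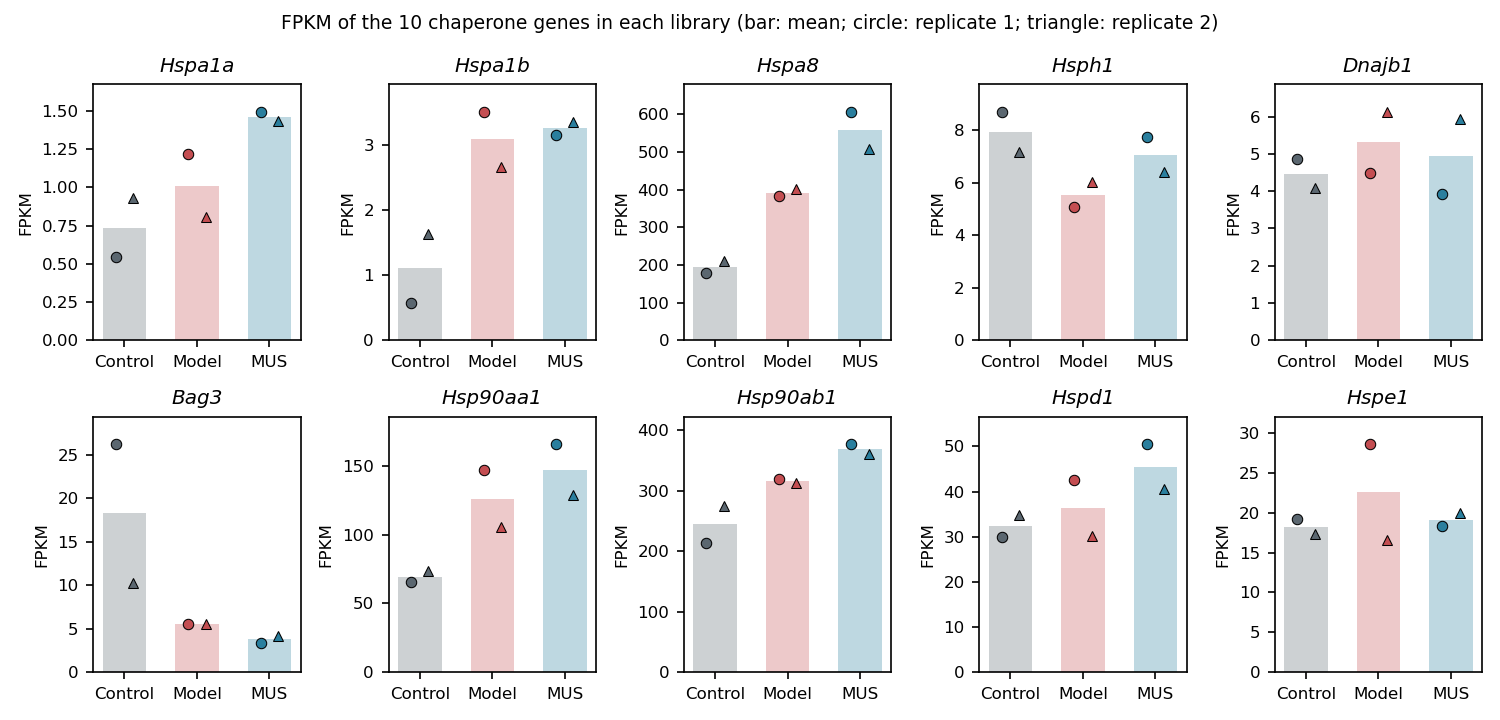
FPKM of the 10 genes on the y axis in each of the 6 libraries, with bars for the group means of 2 libraries and every y axis starting at 0. Hspa8 rises from 178 and 211 in Control to 606 and 509 in MUS, and Bag3 lies at 26.2 and 10.3 in Control and at 3.38 and 4.21 in MUS.

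After LPS + ATP, Hspa8, Hspa1b and Hsp90aa1 were higher and Bag3 lower than in untreated cells in both libraries, but none of the 10 genes passed the limma test in Model vs. Control, in which 17.3% of the 9794 genes tested had an adjusted p of at most 0.05 and 15.1% were DEGs, with an absolute log2 difference over 1 as well. Differences are on the log2(FPKM + 1) scale unless voom is named, which makes those of low genes smaller than the ratio of their FPKM. An unadjusted p under 0.05 was reached by 4 of the 10 (Hspa1b, Hspa8, Hsp90aa1 and Bag3), against 33.6% of all genes tested. Adjusted p-values of the 10 ran from 0.052 to 0.753, and the difference was above 0 for 8 of 10, against 52.5% of all genes. This tally and the median depend on the scaling of the libraries, with 5 of 10 above 0 under quantile normalization (median -0.084) and 3 of 10 with fragment-total scaling (median -0.21). All genes moved as well, with 46.0% and 29.1% of them above 0 under these 2 scalings and medians of -0.064 and -0.40. Both Model libraries stood above both Control libraries for 4 genes (background 32.6%) and below them for 2 (background 28.5%). The median log2 difference over the 10 genes was 0.23, beside 0.041 over all genes tested. Over the 5262 genes with a mean of at least 5 FPKM, the median was 0.25 and 63.3% were above 0. The 7 chaperone genes at that level had a median of 0.25. On recovered fragments with TMM scaling and voom, 1 of the 10 was called (Bag3, -1.64, adjusted p = 0.032), and without the second Control library 2 were (Bag3 and Hspa1b).

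In cells given muscone with LPS + ATP, Hspa8 was 2.87-fold and Hspa1b 2.95-fold the Control mean, and Bag3 was 0.208-fold. These were the 3 of 10 genes that limma called in MUS vs. Control, 2 higher and 1 lower, and the only calls among the 10 in the 3 comparisons. Of all genes tested, 24.4% were called in that comparison, 13% as higher and 11.4% as lower, so the share among the chaperones was close to the background, and the DEGs, again these 3, stand beside a background of 20.2%. The unadjusted p was under 0.05 for 4 of 10 (background 39.7%). The MUS libraries lay above both Control libraries for 6 genes (background 39.6%) and below for 1 (background 33.8%), and 8 of 10 differences were above 0 (background 52.3%). The median log2 difference was 0.49, beside 0.040 over all genes. Over the 5262 genes with a mean of at least 5 FPKM, it was 0.25, and 62.2% were above 0. Under quantile normalization and with fragment-total scaling 5 of the 10 chaperone genes were above 0, with medians of 0.0033 and 0.0083. Of all genes, 46.9% and 30.8% were above 0 under these scalings, with medians of -0.055 and -0.39. All 3 calls were lost without a filter on low values (adjusted p-values of 0.109 to 0.158) and without either MUS library (0.079 to 0.194), and those of Hspa1b and Hspa8 without the first Control library (0.170 and 0.051).

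For MUS vs. Model, which asks what muscone added to LPS + ATP, limma called no chaperone gene and no other gene (0% of 9794, so 0% were DEGs), and TMM with voom called 0 as well. By the unadjusted p under 0.05, 0 of the 10 and 825 of all genes (8.42%) passed. The MUS libraries did not overlap with the Model libraries for Hspa1a, Hspa8, Hsph1 and Hsp90ab1, all higher (background 21.2%), and for Bag3, lower (background 21%). The difference was above 0 for 7 of 10 (background 51.3%), with a median of 0.23 against 0.012 over all genes. Batch 1 and batch 2 stand here for the replicate numbers of the libraries, whose pairing is an assumption. Within batch 1 and batch 2 the differences had the same sign for 6 of 10 genes in Model vs. Control, 8 in MUS vs. Model and 8 in MUS vs. Control. The 3 comparisons share their libraries, so their values are not independent of each other.

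**Figure D3:**
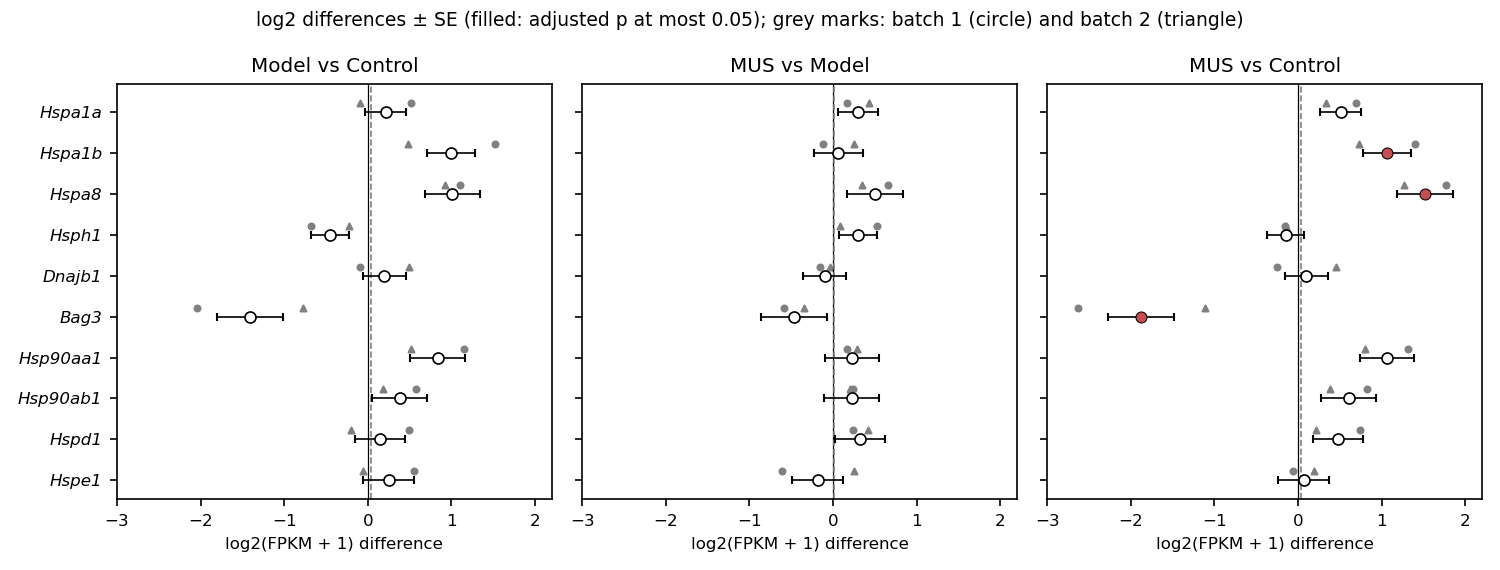
Log2(FPKM + 1) difference of each gene (circles, with bars of 1 SE from limma) in the 3 comparisons, with the median of all genes as a dashed line. Small grey marks are the differences within batch 1 and within batch 2, which are the replicate numbers. Filled circles mark an adjusted p of at most 0.05, which Hspa1b, Hspa8 and Bag3 reach in MUS vs. Control.

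Hspa8 (ENSMUSG00000015656, chr9:40800984-40810087, plus strand, GRCm38), the constitutive cytosolic HSP70, was the most abundant of the 10 genes in every treated library. Its FPKM was 178 and 211 in Control, compared with 384 and 401 in Model and 606 and 509 in MUS. None of the 3 groups overlapped, with Control lowest and MUS highest. The mean was 2.02-fold higher in Model than in Control, with a log2 difference of 1.01 ± 0.33 (SE) and an adjusted p of 0.080. In MUS it was 2.87-fold above Control, and this rise passed the test (1.51 ± 0.33, adjusted p = 0.020; 1.76 within batch 1 and 1.26 within batch 2). Under quantile normalization the difference was 0.57 and was not called (adjusted p = 0.183). MUS stood 1.42-fold above Model, at a log2 difference of 0.50 with a 95% interval of -0.28 to 1.29 (adjusted p = 0.749). Of the transcript stretches of 50 bases in Hspa8, 38.6% also occur in other genes, mostly the pseudogene Gm15459, so reads could have been split between copies.

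Hspa8, Hsp90ab1 and Hsp90aa1 ranked 100, 126 and 389 among the 9794 genes by mean FPKM. How they compare with other abundant genes depends on how such genes are chosen. Over the 459 genes with a mean of at least 100 FPKM in the 6 libraries, which take in genes that are high only after treatment, the median log2 difference was 0.83 in Model vs. Control and 0.78 in MUS vs. Control. Their upper quartiles were 2.41 and 2.33, and Hspa8, Hsp90aa1 and Hsp90ab1 lay below these in both comparisons. Over the 282 genes with a Control mean of at least 100 FPKM, a choice made after seeing the data, the median was 0.17 and 0.021. The upper quartiles of the 282 were 0.71 and 0.65. Hspa8 lay above these and Hsp90ab1 below, and Hsp90aa1 was not in this class. In MUS vs. Model the 459 genes had a median of -0.08 and an upper quartile of 0.16, and Hspa8 (0.50), Hsp90aa1 (0.23) and Hsp90ab1 (0.22) were all above that quartile. As a share of all FPKM in a library, the 10 genes together made up 0.234% and 0.268% in Control, with 0.240% and 0.294% in Model and 0.382% and 0.354% in MUS. By this share Control and Model overlapped and both MUS libraries stood above the other 4. The summed FPKM itself separated all 3 groups. Control libraries reached at most 636, Model libraries ranged from 887 to 941, while MUS libraries had 1080 or more. Unlike the share, this sum depends on the scaling factor of each library. Hspa8, Hsp90ab1 and Hsp90aa1 gave 83.5% to 92.8% of the sum.

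The inducible twin genes were low in every group. Hspa1b (ENSMUSG00000090877, chr17:34956436-34959238, minus strand) was at 0.577 and 1.64 FPKM in Control against 3.51 and 2.67 in Model and 3.16 and 3.36 in MUS. Both treated groups lay above Control and overlapped with each other. The difference was 1.00 ± 0.29 in Model vs. Control (adjusted p = 0.056), 1.06 ± 0.29 in MUS vs. Control (adjusted p = 0.038) and 0.07 in MUS vs. Model, with an interval of -0.61 to 0.75. Within batch 1 and batch 2 the Model vs. Control difference was 1.52 and 0.48, and that of MUS vs. Control was 1.40 and 0.73. With fragment-total scaling the MUS vs. Control difference was 0.77 and was not called (adjusted p = 0.089). Hspa1a (ENSMUSG00000091971, chr17:34969190-34972156, minus strand) was at 0.545 and 0.928 FPKM in Control, compared with 1.22 and 0.805 in Model and 1.49 and 1.43 in MUS. Model overlapped with Control, MUS was above both, and no Hspa1a difference passed the test (0.21, 0.30 and 0.51 in Model vs. Control, MUS vs. Model and MUS vs. Control, with adjusted p-values of 0.573, 0.801 and 0.165). Hspa1a shares 58.8% of its 50-base stretches with Hspa1b, and Hspa1b shares 62.3% with Hspa1a. Reads that match both genes may have been divided between them or left uncounted, so the levels of both are uncertain. Hspa1a also overlaps by 2225 bases with the gene model Gm20481 on the opposite strand, which had 0 FPKM.

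In FPKM, Hspa1a stood at 0.307% and 0.439% of Hspa8 in Control, with 0.317% and 0.201% in Model and 0.246% and 0.281% in MUS. Groups overlapped between Control and Model and between Model and MUS, and Hspa1a was at most 0.439% of the constitutive form in the 6 libraries. Both genes share stretches with other genes, so these percentages are uncertain too.

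Bag3 (ENSMUSG00000030847, chr7:128523616-128546981, plus strand), an HSP70 partner that links clients to autophagy, was lower in both treated groups than in Control. Its FPKM was 26.2 and 10.3 in Control against 5.59 and 5.59 in Model and 3.38 and 4.21 in MUS. No groups overlapped, and the Control libraries lay further from each other than those of the other groups. The log2 difference was -1.41 ± 0.40 in Model vs. Control (adjusted p = 0.052), where it passed with the replicate number as a block (adjusted p = 0.040), and Bag3 fell in MUS vs. Control (-1.88 ± 0.40, adjusted p = 0.017). Within batch 1 and batch 2 the Model vs. Control difference was -2.05 and -0.78, and that of MUS vs. Control was -2.63 and -1.12. MUS vs. Model gave -0.46, with an interval of -1.40 to 0.48. None of its 50-base stretches occurs in another gene. The gene model 2610306O10Rik overlaps Bag3 by 612 bases on the same strand and had a mean of 0.398 FPKM.

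No difference of the other HSP70 co-chaperones passed the test. Hsph1 (HSP110, ENSMUSG00000029657, chr5:149614287-149636376, minus strand), which resets HSP70 and takes part in dissolving aggregates, had 8.69 and 7.18 FPKM in Control, compared with 5.06 and 6.0 in Model and 7.72 and 6.40 in MUS. Model lay below both other groups in every library, and MUS overlapped with Control. The differences were -0.45 ± 0.22 in Model vs. Control (adjusted p = 0.206), 0.30 in MUS vs. Model (interval -0.23 to 0.83) and -0.15 in MUS vs. Control. Dnajb1 (HSP40, ENSMUSG00000005483, chr8:83608193-83612653, plus strand), the J-domain partner of HSP70, had 4.86 and 4.08 FPKM in Control, with 4.49 and 6.12 in Model and 3.92 and 5.94 in MUS. All 3 groups overlapped, and the intervals of its differences were -0.41 to 0.81, -0.71 to 0.51 and -0.51 to 0.71 in Model vs. Control, MUS vs. Model and MUS vs. Control.

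Neither cytosolic HSP90 form passed the test in any comparison. Hsp90aa1 (ENSMUSG00000021270, chr12:110690605-110702728, minus strand), the form that stress induces, had 65.7 and 73.2 FPKM in Control against 147 and 105 in Model and 166 and 129 in MUS. Both treated groups were above Control and overlapped with each other. Its difference was 0.83 ± 0.33 in Model vs. Control (adjusted p = 0.124), 1.06 ± 0.33 in MUS vs. Control (adjusted p = 0.054) and 0.23 in MUS vs. Model (interval -0.54 to 1.00). Hsp90ab1 (ENSMUSG00000023944, chr17:45567775-45573271, minus strand), the constitutive form, had 213 and 276 FPKM in Control, compared with 319 and 313 in Model and 377 and 361 in MUS. Levels followed the order Control, Model and MUS without overlap, yet no difference passed the test (0.38, 0.22 and 0.60 in Model vs. Control, MUS vs. Model and MUS vs. Control, with adjusted p-values of 0.449, 0.905 and 0.218).

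The FPKM ratio of Hsp90aa1 to Hsp90ab1, which no scaling factor of a library can alter, was 0.308 and 0.266 in Control, with 0.460 and 0.337 in Model and 0.439 and 0.356 in MUS. All 4 treated libraries were above both Control libraries, and Model and MUS overlapped. The ratios within a library are given as a description and were not tested. Hsp90aa1 shares 47.5% of its 50-base stretches with other genes, mostly Gm12346, against 3.44% for Hsp90ab1, and its level is the less certain of the pair.

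**Figure D4:**
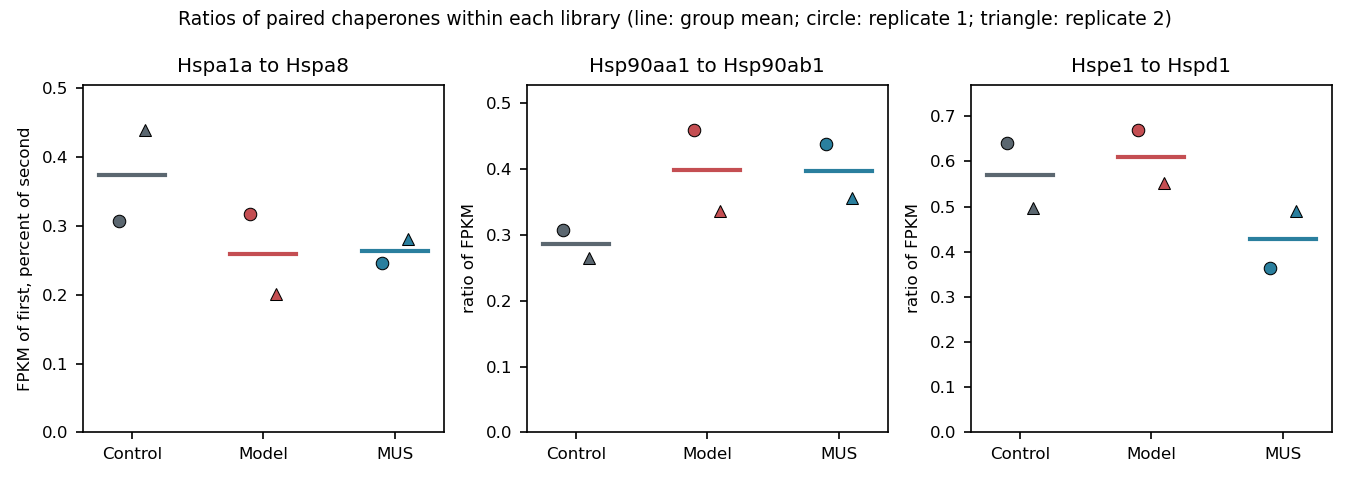
Ratio of FPKM within each library for Hspa1a to Hspa8 (in percent), Hsp90aa1 to Hsp90ab1 and Hspe1 to Hspd1, with lines for the group means of 2 libraries and y axes from 0. The Hsp90aa1 to Hsp90ab1 ratio is 0.308 and 0.266 in Control and at least 0.337 in every treated library.

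The mitochondrial chaperonin did not pass the test in any comparison. Hspd1 (HSP60, ENSMUSG00000025980, chr1:55077835-55088243, minus strand) had 29.9 and 34.7 FPKM in Control against 42.6 and 30.1 in Model and 50.5 and 40.5 in MUS. MUS lay above Control in both libraries and overlapped with Model. The intervals of its differences were -0.56 to 0.85, -0.38 to 1.03 and -0.23 to 1.18 in Model vs. Control, MUS vs. Model and MUS vs. Control. Hspe1 (HSP10, ENSMUSG00000073676, chr1:55088132-55091307, plus strand) had 19.2 and 17.3 FPKM in Control, compared with 28.6 and 16.6 in Model and 18.4 and 19.9 in MUS, with overlap between all groups. Its 3 intervals were -0.48 to 0.97, -0.91 to 0.54 and -0.66 to 0.79. Model replicate 1, the higher Model library for both genes, had at least 1 fragment on 24906 genes, against 17406 to 19200 in the other libraries. The part of this in the levels of both genes was not tested. Although both genes start from 1 shared stretch, the Hspe1 to Hspd1 ratio was 0.641 and 0.498 in Control, with 0.670 and 0.551 in Model and 0.363 and 0.491 in MUS. Both MUS libraries were below the other 4 by this ratio. The gene models overlap by 112 bases on opposite strands, and 39.7% of the 50-base stretches of Hspd1 (mostly shared with Hspd1-ps3) and 18.4% of those of Hspe1 occur elsewhere, so reads could have been assigned to a copy or to the partner.

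The scaling of the libraries decides the sign of several small differences. The deposited values use a library size that is 1.45 and 1.34 times the fragments on genes in Control and 0.909 to 0.998 times in the treated libraries. Rescaled to fragment totals, the median of all genes moved from 0.041 to -0.40 in Model vs. Control and from 0.040 to -0.39 in MUS vs. Control. Hspa1b, Hspa8, Hsp90aa1 (higher) and Bag3 and Hsph1 (lower) kept their direction against Control under all 5 scalings, whereas Hspa8 and Hsp90aa1 came to 0.01 and 0.03 in Model vs. Control under quantile normalization. Hsp90ab1, Hspd1, Hspe1, Dnajb1 and Hspa1a changed sign in Model vs. Control under at least 1 of them. In MUS vs. Model, where the scales are alike, every gene kept its sign under the 5 scalings.

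**Figure D5:**
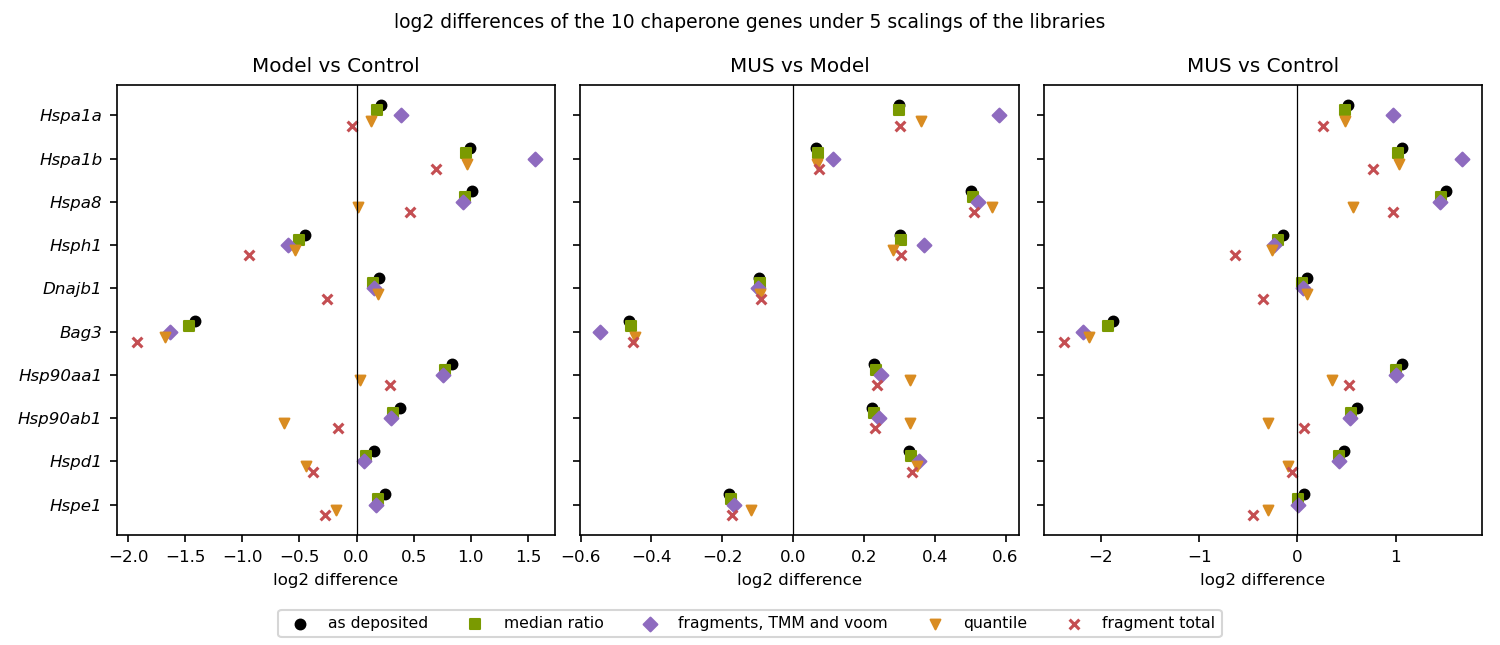
Log2 difference of each gene in the 3 comparisons under 5 ways of scaling the libraries (symbols), with a separate x axis for each comparison. The symbols of Hspa1b, Hspa8 and Bag3 stay on 1 side of 0 in MUS vs. Control, and those of Hsp90ab1, Hspd1 and Hspe1 fall on both sides in Model vs. Control.

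Other genes of the same machinery were counted in 9 lists of partners and related chaperones. Of 6 genes listed as HSF factors and their binding protein, 3 were tested. Hsf1, the factor behind the heat shock response, had 2.62 and 2.13 FPKM in Control against 1.99 and 1.91 in Model and 1.85 and 2.38 in MUS. Hsf2 was at 2.24 to 3.61 FPKM and Hsbp1, which binds HSF1, at 37.2 to 57.9 over the 6 libraries. No gene of the list was called in any comparison, and Hsf2 had the largest difference, 0.31, in Model vs. Control (adjusted p = 0.345).

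Co-chaperones of HSP90 and HSP70 (19 tested) gave 2 higher and 0 lower calls in Model vs. Control and 3 higher and 1 lower in MUS vs. Control, beside backgrounds of 17.3% and 24.4% of all genes. Chordc1, an HSP90 co-chaperone, had 4.54 and 6.09 FPKM in Control, compared with 14.7 and 11.7 in Model and 11.3 and 11.1 in MUS, and rose in Model vs. Control (1.17 ± 0.24, adjusted p = 0.020). Stip1 (HOP), which hands clients from HSP70 to HSP90, had 18.6 and 19.0 FPKM in Control, with 21.3 and 26.2 in Model and 40.7 and 38.7 in MUS. It rose in MUS vs. Control (1.04, adjusted p = 0.026), and its MUS vs. Model difference of 0.72 was not called (adjusted p = 0.493). Hspbp1, a nucleotide exchange factor of HSP70, had 15.1 and 17.9 FPKM in Control against 24.5 and 17.5 in Model and 4.55 and 9.47 in MUS, and fell in MUS vs. Control (-1.19, adjusted p = 0.049). Its MUS vs. Model difference was -1.51, with no overlap, but with an adjusted p of 0.367 it was not called. Fkbp5, an HSP90-binding immunophilin, was called as higher in both comparisons with Control (0.93 and 0.82).

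Among the 12 J-domain proteins tested from their list, 1 was called as higher and 1 as lower in each comparison with Control. Of all genes, 17.3% were called in Model vs. Control and 24.4% in MUS vs. Control. Dnaja2, an HSP40 partner of Hspa8, had 39.5 and 62.2 FPKM in Control, compared with 192 and 113 in Model and 190 and 122 in MUS, and rose by 1.55 in Model vs. Control (adjusted p = 0.047) and by 1.60 in MUS vs. Control (adjusted p = 0.035). The Model vs. Control call was made in only 5 of 16 alternatives (differences of 0.76 to 1.93, adjusted p-values up to 0.193). Dnajb14 fell in both comparisons with Control (-0.92 and -0.86). Of the other HSP70 and HSP110 genes (4 tested), Hspa4l alone was called, as higher in MUS vs. Control (0.78, adjusted p = 0.042), and Hspa4 had the lowest difference of the list (-0.14 in Model vs. Control, adjusted p = 0.720). The BAG list held 3 tested genes besides Bag3, and Bag6 fell in MUS vs. Control (-1.01, adjusted p = 0.032), with 17.3 and 17.4 FPKM in Control and 6.73 and 9.81 in MUS. Of 9 small heat shock protein genes, 2 were tested (Hspb1 and Cryab) and neither was called.

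The cytosolic chaperonin TRiC with its partner prefoldin (14 tested) had a median difference of 0.70 in Model vs. Control, beside 0.041 over all genes, and no call against a background of 17.3%. Genes with a mean of at least 20 FPKM, a level that most TRiC subunits reached, had a median of 0.60. Of the 14, 10 were higher, every TRiC subunit among them (0.67 to 0.90). The 4 lower ones were prefoldin genes (-0.75 to -0.058). In MUS vs. Control the median was 0.89, beside 0.040 over all genes and 0.56 over those of at least 20 FPKM. Of the 14, 2 were called, a share below the background of 24.4%. These were Tcp1 (1.02, adjusted p = 0.048) and Cct7 (0.91, adjusted p = 0.043), both higher. In MUS vs. Model the median was 0.14, beside 0.012. Of 10 other mitochondrial chaperones and proteases, Hscb, a J-domain protein of iron-sulfur cluster assembly, fell in both comparisons with Control (-1.56, adjusted p = 0.015, and -1.70, adjusted p = 0.009). Clpp, the subunit of a matrix protease, fell in both as well (-0.89 and -0.78). These 2 calls of 10 in each comparison stand beside backgrounds of 17.3% and 24.4%. Hspa9, the mitochondrial HSP70, had 56.7 and 60.1 FPKM in Control, with 58.6 and 52.5 in Model and 83.4 and 68.8 in MUS, with a MUS vs. Model difference of 0.44 (adjusted p = 0.734). Of 14 ER chaperones, 1 rose and 1 fell in MUS vs. Control. They were Hspa5 (BiP, the ER HSP70; 1.22, adjusted p = 0.031), with 118 and 130 FPKM in Control against 270 and 242 in Model and 310 and 274 in MUS, and its J-domain partner Dnajb9 (-1.05, adjusted p = 0.026). Of the 20 calls over these lists, 8 were made in 7 or fewer of their alternatives, those of Dnaja2, Dnajb14, Fkbp5 and Clpp in Model vs. Control and of Hspa4l, Hspbp1, Tcp1 and Clpp in MUS vs. Control. No gene of any of the 9 lists was called in MUS vs. Model.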

How the data were processed

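Poly-A RNA-seq of mouse peritoneal macrophages was analysed in 3 groups of 2 libraries, grouped by the treatment given in the labels. The authors deposited 1 table of FPKM. The methods name RSEM, whereas the submitters' processing notes name HISAT2, featureCounts 1.5.0-p3 and the build GRCm39, yet 98.3% of the 54409 gene identifiers shared with GENCODE M21, and all 10 genes described, have their GRCm38 start and end. Coordinates are therefore given on GRCm38. FPKM times gene length was a whole multiple of 1 step in every library (tolerance 0.1 of the step), which gave the fragments on genes, 15742538 and 17135442 in Control, 15526321 to 15529580 in Model and 16222724 to 16481372 in MUS. For a gene 1 kb long, the upper limit behind a count of 0 (3 fragments) is 0.131 to 0.213 FPKM, for counting error only.

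The values were fitted with limma 3.58.1 (R 4.3.3) on log2(FPKM + 1) with eBayes and a trend of variance on mean, for 9794 genes that averaged 1 FPKM or more, all 6 libraries in 1 model, two-sided, with Benjamini-Hochberg adjustment over the genes tested in a comparison. The fit has 3 residual and 4.04 prior degrees of freedom. DEGs had to differ by over 1 on the log2 scale at an adjusted p of 0.05 or less. Intervals are 95% intervals of the fit. DESeq2, which the study used, was not run, and the recovered fragments were fitted with TMM and voom instead. The calls given here can therefore differ from those of the study. Tables and plots were made in Python 3.11.15 (NumPy 2.4.6, Matplotlib 3.10.9 and pandas 2.3.3). All 6 columns had a sample (0 without).

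The labels give a replicate number, which was assumed here to be a batch that pairs the libraries. Differences between replicates correlated only weakly across genes, at 0.119 (Control with Model), 0.136 (Model with MUS) and -0.0928 (Control with MUS). The number served as a block in an alternative only. Other alternatives were another pseudocount (0.1), filter, scaling or set of libraries, and no trend. The genes, the partner lists and the tests were chosen with earlier results of these data known. Named from the lists were the DEGs (up to 4) or otherwise the largest differences in either direction. Hspa9, Fkbp5, Clpp, Dnajb14 and Cct7 were named after their values were seen. Shared stretches are 50-base pieces of a gene's GENCODE transcripts that also occur in another gene's.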

Additional observations from a re-analysis of the deposited data

How the results depend on the processing

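Each difference was recomputed under 16 alternatives. Hspa1a, Hspa1b and Dnajb1 fall below the filter of a mean FPKM of at least 5 and have no value there. Of the 157 values of the 10 genes in Model vs. Control, 137 kept their direction and side of the threshold, against 152 in MUS vs. Model and 130 in MUS vs. Control.

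The number of genes called in Model vs. Control rose from 0 to 1 with a mean of at least 5 FPKM, without a trend, with the replicate block, under quantile normalization, with median-ratio scaling and with TMM and voom, and to 2 with fragment-total scaling. It was 0 to 2 with 1 library left out. In MUS vs. Control it fell from 3 to 0 without a filter on low values, where 30192 genes were tested, and was 0 to 4 with 1 library left out (0 without either MUS library and 1 without Control replicate 1). The cause was not tested. Over all genes, calls numbered 1691 in Model vs. Control (1011 higher, 680 lower), 797 with only the 2 groups compared, 692 to 2100 with 1 library left out, 787 higher and 832 lower under quantile normalization and 704 and 2075 with fragment-total scaling. In MUS vs. Control they numbered 2391 (1273 higher, 1118 lower), 184 to 2630 with 1 library left out, 1036 and 1324 under quantile normalization and 799 and 2511 with fragment-total scaling. Without a filter they numbered 262 and 468, and in MUS vs. Model 0 to 31, most without Model replicate 2. The replicate block changed no other call of the 10 genes than that of Bag3 (adjusted p = 0.040 in Model vs. Control).

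With the genes of at least 100 FPKM chosen by their Control mean, an alternative chosen after seeing the data, their median was 0.17, -0.13 and 0.021 in Model vs. Control, MUS vs. Model and MUS vs. Control, against 0.83, -0.084 and 0.78.

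The median difference over the 10 genes reversed in Model vs. Control to -0.084 under quantile normalization and -0.21 with fragment-total scaling, and moved to 0.31 in MUS vs. Model and 0.0033 in MUS vs. Control under quantile normalization and to 0.0083 in MUS vs. Control with fragment-total scaling. Leaving out 1 library gave 0.087 to 0.29 in MUS vs. Model. Fragment-total scaling shifts the median of all genes to -0.40 and -0.39 in the comparisons with Control.

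Signs reversed under quantile normalization for Hsp90ab1 (-0.63), Hspd1 (-0.44) and Hspe1 (-0.18) in Model vs. Control and for Hsp90ab1 (-0.30), Hspd1 (-0.091) and Hspe1 (-0.29) in MUS vs. Control. With fragment-total scaling they reversed for Hspa1a (-0.040), Dnajb1 (-0.26), Hsp90ab1 (-0.17), Hspd1 (-0.39) and Hspe1 (-0.28) in Model vs. Control and for Dnajb1 (-0.35), Hspd1 (-0.050) and Hspe1 (-0.45) in MUS vs. Control. With 1 library left out, other differences also reversed, and their ranges were -0.096 to 0.39 (Hspd1) and -0.13 to 0.62 (Hspe1) in Model vs. Control, below 0 without Model replicate 1. In MUS vs. Model they were -0.56 to 0.19 (Hspe1, above 0 without Model replicate 1), -0.083 to 0.21 (Hspa1b) and -0.0081 to 0.47 (Hsp90aa1), both below 0 without Model replicate 2, and -0.34 to 0.15 (Dnajb1, above 0 without Model replicate 2 or MUS replicate 1). In MUS vs. Control they were -0.15 to 0.35 (Dnajb1, below 0 without Control replicate 2, at -0.0037, or MUS replicate 2) and -0.0044 to 0.14 (Hspe1, below 0 without Control replicate 2).

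In MUS vs. Control, Bag3 was called in 13 of 16 alternatives, Hspa8 in 11 of 16, Hspa1b in 10 of 15 and Hsp90aa1 in 5 of 16. The 20 calls among the partner lists kept their direction in every alternative and were called in 3 to 13 of them. The 37 to 153 fragments on Hspa1a and Hspa1b limit what can be said of them.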

Other observations

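Over the 6 libraries, the genes whose log2(FPKM + 1) followed that of a chaperone most closely were looked up among 5255 other genes with a mean of at least 5 FPKM, as a description without a test, since the 6 points share library, depth and treatment. Next to Hspa1a these were Dnaja3, a mitochondrial J-domain protein (r = 0.988; 5.15 and 5.93 FPKM in Control, 6.57 and 5.58 in Model, 7.41 and 6.89 in MUS), Gm7591 (0.983) and Gm22574 (0.982). Next to Hsp90aa1 were Tra2b, a splicing factor (0.999), Atp1b3, a subunit of the sodium pump (0.999; 155 and 173 FPKM in Control, 338 and 237 in Model, 393 and 298 in MUS), and Nus1 (0.996). Next to Hspd1 were Tmf1 (0.995), Paip1 (0.983) and Rps27a-ps2 (0.981). Bag3 ran opposite to Hsp90ab1 (r = -0.992) and Hspa1b (-0.966), and Hspe1 followed its partner Hspd1 only loosely (0.399).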
